A study of Homo sapiens with 4 samples.

Results

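The 10 genes described here encode the chaperones that build the proteasome and a transcription factor circuit that sets how much of it a cell makes. They are PSMG1, PSMG2, PSMG3, PSMG4 and POMP, which assemble the 20S core, PSMD5, PSMD9 and PSMD10, which assemble the 19S base, and NFE2L1 (NRF1) with NGLY1, the enzyme that activates it. Every probe was taken whose only gene symbol in the platform annotation is 1 of these names. That gave 13 probes, of 31741 probes and 18365 named genes on the array. PSMG2, PSMG3 and PSMG4 had 2 probes each and the other 7 genes had 1. The RNA came from DLD-1, an established human colorectal cancer cell line, and was labelled with Cy5 for single-color Human OneArray Plus arrays. DLD-1-miR-Vec cells carried the empty plasmid pCMV-MIR and DLD-1-miR-21 cells carried a plasmid encoding human miR-21, so the transfection, the GFP reporter and the G418 kept in the medium were common to both lines. Each line is a pool of stable clones picked for GFP, and 2 arrays were run per line. No source states that replicate arrays were fed from different cultures. The p-values therefore take in only array-to-array spread, possibly technical.

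The 26S proteasome is the protease that degrades ubiquitin-tagged proteins. Its barrel, the 20S core, is a stack of alpha and beta rings, and the 19S particle on its end holds a base, with a ring of ATPases, and a lid. None of the assembly chaperones stays in the finished particle. The PSMG1–PSMG2 and PSMG3–PSMG4 dimers guide the alpha ring, POMP brings in beta subunits and helps half-barrels join, and PSMD5, PSMD9 and PSMD10 each hold a different pair or single ATPase of the base until the ring closes. NFE2L1 is made in the endoplasmic reticulum and normally pulled out and degraded. When proteasomes are short it escapes, is edited by NGLY1 and cut by DDI2, and then pairs with a small MAF protein to raise transcription of proteasome genes.

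The sequences that the comparison and this circuit turn on are the overexpressed miRNA and the DNA element that NFE2L1 and small MAF proteins bind. RefSeq places the mature miRNA at chr17:59841273-59841294 (GRCh38.p14, plus strand), and its seed, bases 2 to 8, is in capitals below.
hsa-miR-21-5p: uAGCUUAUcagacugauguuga
The core of the antioxidant response element was searched as TGACNNNGC on both strands of RefSeq's promoter windows (GRCh38.p14), which run from 250 bases before a transcript's start to 50 after it. Where the spacer begins with TCA this core overlaps an AP-1 site. Of 10 genes, 9 had a window, in 12 windows. The core was in 4 of the 12 windows, those of PSMG1, PSMG2, PSMD5 and PSMD9, and in 13.3% of all 35116 windows. The capitals mark each match, with 10 bases on either side, read on the gene's strand.
PSMG1: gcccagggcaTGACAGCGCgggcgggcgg
PSMG2: cagtttcccgTGACCCCGCggccgctctg
PSMD5: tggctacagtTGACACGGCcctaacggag
PSMD9, far match: cgctactcctGCCGGGTCAccacaggcgc
PSMD9, near match: cggcttccggTGACCCAGCtccgccctaa
The printed PSMG1 stretch is at chr21:39183616-39183644 (minus strand), with its match 183 to 175 bases before the start. The PSMG2 stretch is at chr18:12658689-12658717 (plus strand), with its match 39 to 31 bases before the start. The PSMD5 stretch is at chr9:120843038-120843066 (minus strand), with its match 134 to 126 bases before the start. The PSMD9 stretches are at chr12:121888631-121888659, in reverse, and chr12:121888678-121888706 (plus strand), with their matches starting 149 and 102 bases before the start. A related core, TGAGNNNGC, was in 4 of the 12 windows (PSMG1, PSMD5, PSMD9 and NGLY1) and in 18.3% of all windows. Its match in PSMD9, TGAGTCAGC, lies 227 to 219 bases before the start and has the spacer TCA, so it overlaps an AP-1 site. None of the matches printed above has that spacer. These are matches of letters and not measured binding sites. Among the 4 genes that hold the first core, PSMG1 was called lower, PSMD5 higher and PSMD9 neither, and PSMG2 was called lower on 1 of its 2 probes.

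Deposited intensities were linear and dimmer with miR-21, having medians of 571 on both DLD-1-miR-Vec arrays and of 255 and 339 on those of DLD-1-miR-21. They were therefore quantile-normalized, which gives all 4 arrays the same distribution. Log2 ratios below compare DLD-1-miR-21 with DLD-1-miR-Vec cells, a value above 0 being higher in DLD-1-miR-21, and are on the log2(intensity + 50) scale. Their median over all probes was then 0.07, against -0.63 without normalization. Log2 values correlated at 0.9836 and 0.9904 within the lines and at 0.9087 to 0.9398 between them. No probe of MIR21 itself is named on the array, so the overexpression could not be checked here. Of the 2 probes of PDCD4, a known miR-21 target, the brighter had a log2 ratio of -0.08 (adjusted p = 0.617) and the other fell (-0.65, adjusted p = 0.0225). That other probe was dim, at 108 and 117 normalized units in DLD-1-miR-Vec and 62 and 46 in DLD-1-miR-21 cells. Both PDCD4 probes were called lower without normalization (-1.12 and -0.997). Of 8 probes for epithelial markers, 2 were called higher, 3 lower and 3 neither. EPCAM (33674 to 76640 normalized units) and KRT19 (119214 to 152750) were bright on every array, though EPCAM was called lower with a log2 ratio of -1.13, and KRT8 was dim at 182 to 556 units and also called lower (-1.17). The 2 probes of CDH17 were called in opposite directions (0.70 and -1.53). VIL1 had the largest log2 ratio of these probes (1.58) and was called higher, also without normalization (0.68). CDH1 (-0.35) and CDX2 (0.43) were not called, and KRT18 had no probe. Of 10 probes for immune, fibroblast and endothelial markers, 4 were called higher in DLD-1-miR-21 cells (PDGFRB, VWF and both of COL1A2) and 0 lower, and without normalization 0 were higher and 1 lower. Over all probes tested, 23.0% were called higher and 21.8% lower, and without normalization 1.31% and 44.2%. The summed normalized intensity of the 10 immune, fibroblast and endothelial probes was 6264 to 6544 in DLD-1-miR-Vec and 8366 to 9795 in DLD-1-miR-21 cells. PTPRC and CD3E stayed under 100 units on every array, while CD68 read 1257 to 2358 units and COL1A1 2068 to 4896, neither of them called. The part of these markers in the results below was not tested.

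Most probes for chaperones of the 20S core were lower with miR-21. PSMG1 and the dimmer probe of PSMG3 were furthest down, while POMP was not called. Of the 8 probes for these 5 genes, 5 were called lower and 1 higher in limma at an adjusted p under 0.05, beside 21.8% and 23.0% of all probes. In RNA from whole cultures, fewer cells of a type and less RNA per cell cannot be told apart.

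PSMG1, one chain of the dimer that starts the alpha ring, was measured at 3979 and 5316 normalized units in DLD-1-miR-Vec cells and at 880 and 630 in DLD-1-miR-21 cells. The arrays of the lines did not overlap, and the DLD-1-miR-21 arrays were the lower, though above the median of 434 units over all probes. PSMG1 fell by 2.55 on the log2 scale (SE 0.23, 95% interval -3.17 to -1.92, adjusted p = 0.00354), which is 5.84-fold lower.

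Its partner PSMG2 did not follow on its brightest probe. That probe read 32585 and 32222 units in DLD-1-miR-Vec cells and 38113 and 33090 in DLD-1-miR-21 cells. The lines did not overlap but lay close, and the log2 ratio of 0.13 (SE 0.13, 95% interval -0.22 to 0.49, adjusted p = 0.462) was not called. The second PSMG2 probe read 11056 and 9782 units in DLD-1-miR-Vec cells and 4770 and 5698 in DLD-1-miR-21 cells. Here the lines were apart on all 4 arrays, and the probe fell by 0.99 on the log2 scale (SE 0.15, adjusted p = 0.0105).

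PSMG3 and PSMG4 form the other alpha ring dimer. The brightest PSMG3 probe read 13501 and 15233 units in DLD-1-miR-Vec cells and 10568 and 9246 in DLD-1-miR-21 cells. The lines did not overlap, and the fall of 0.53 on the log2 scale (SE 0.14, 95% interval -0.92 to -0.15, adjusted p = 0.0405) was the smallest called among the 13 probes. The second PSMG3 probe read 1051 and 1503 units in DLD-1-miR-Vec cells and 148 and 128 in DLD-1-miR-21 cells. It fell by 2.80 on the log2 scale (SE 0.21, 95% interval -3.36 to -2.25, adjusted p = 0.0026), 6.97-fold lower, and both DLD-1-miR-21 arrays were far below both DLD-1-miR-Vec arrays.

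PSMG4 moved in opposite directions on its 2 probes. The brightest read 15365 and 13094 units in DLD-1-miR-Vec cells and 28848 and 31914 in DLD-1-miR-21 cells. It rose by 1.09 (SE 0.15, 95% interval 0.70 to 1.49, adjusted p = 0.00731), which is 2.14-fold and the highest log2 ratio of the 13. This rise rests on the normalization, since the deposited values of 20650 and 19222 in DLD-1-miR-Vec and 17653 and 20354 in DLD-1-miR-21 cells overlapped, with an unnormalized log2 ratio of -0.07. The second PSMG4 probe read 451 and 440 units in DLD-1-miR-Vec cells and 196 and 164 in DLD-1-miR-21 cells. It fell by 1.11 on the log2 scale (SE 0.13, adjusted p = 0.00591), and the lines did not overlap with or without normalization.

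POMP, the maturation factor of the beta ring, read 15512 and 14697 units in DLD-1-miR-Vec cells and 18468 and 13956 in DLD-1-miR-21 cells. The DLD-1-miR-21 arrays lay on either side of the others, and the log2 ratio of 0.09 (SE 0.18, 95% interval -0.39 to 0.57, adjusted p = 0.713) was not called. PSMB5, the chymotrypsin-like catalytic subunit that is processed as the half-barrels join, fell by 1.50 on the log2 scale (SE 0.12, adjusted p = 0.0027) in the same arrays. It read 114392 and 115784 units in DLD-1-miR-Vec cells and 40886 and 40260 in DLD-1-miR-21 cells.

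**Figure D1:**
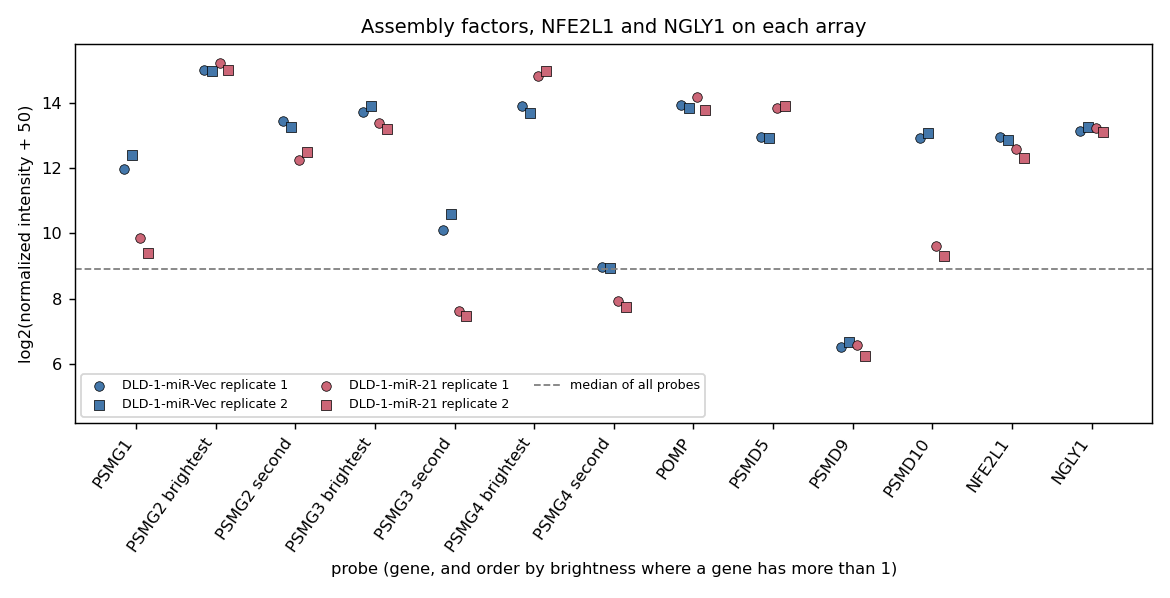
Normalized level of each of the 13 probes on each array, as log2(normalized intensity + 50), with circles and squares for replicates 1 and 2, blue for DLD-1-miR-Vec and red for DLD-1-miR-21; the dashed line is the median of all probes. PSMG1, PSMD10 and the second PSMG3 probe show the widest separation between the lines, and the points of POMP, PSMD9 and NGLY1 overlap.

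Each gene with a pair of probes gave a lower log2 ratio on the dimmer one. The size of that difference was then estimated within each array, a fit chosen after this pattern was seen on the same arrays, so its p-values are not independent support. The order of the 2 probes by brightness was the same on all 4 arrays in all 3 genes. The log2 ratio of the brightest probe exceeded that of the second by 1.12 for PSMG2 (SE 0.23, adjusted p = 0.0184), by 2.27 for PSMG3 (SE 0.20, adjusted p = 0.00322) and by 2.20 for PSMG4 (SE 0.21, adjusted p = 0.00368). These limma p-values were adjusted over the 5441 genes with more than 1 probe, of which 31.8% were called with the brightest probe higher. Disagreement in that direction was common on these arrays, and the share called the other way was not counted. Without normalization the differences were 1.26, 1.72 and 1.67 (adjusted p = 0.0229, 0.00731 and 0.00537). The annotation used here does not say which transcripts or exons each probe reads.

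**Figure D2:**
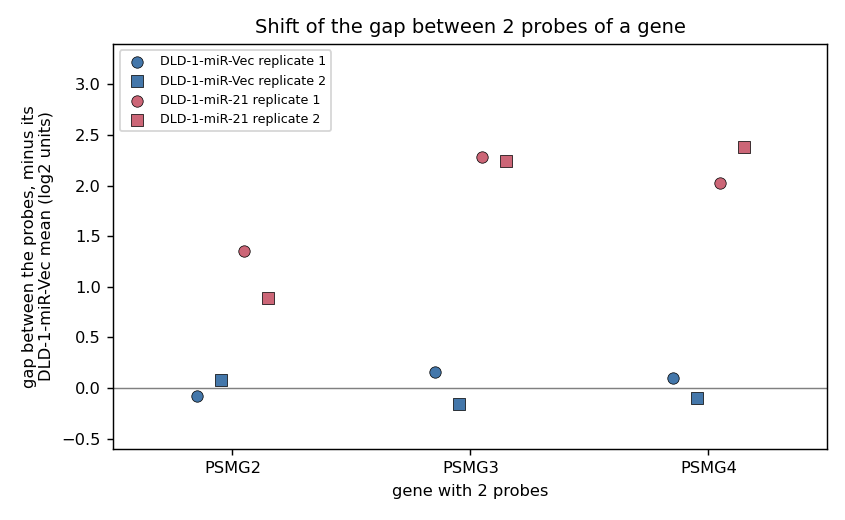
Difference between the log2 values of the brightest and the second probe of PSMG2, PSMG3 and PSMG4 on each array, minus its mean over the 2 DLD-1-miR-Vec arrays, in log2 units; circles and squares are replicates 1 and 2. In each gene both DLD-1-miR-21 arrays (red) lie above both DLD-1-miR-Vec arrays (blue), by 1.12, 2.27 and 2.20 log2 units on average.

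Averaging all probes of a gene gave 1 gene higher (PSMD5) and 4 lower (PSMG1, PSMG2, PSMG3 and PSMD10). For PSMG4 the opposite probes cancelled, with a mean log2 ratio of -0.01 (adjusted p = 0.962). By the brightest probe of each gene, 2 genes were higher (PSMG4 and PSMD5) and 3 lower (PSMG1, PSMG3 and PSMD10). Among the 3 genes with a pair of probes, the call was the same by either choice for PSMG3 and differed for PSMG2 and PSMG4.

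The 3 chaperones of the 19S base did not share a result. PSMD10 was lower, PSMD5 was higher after normalization, and PSMD9 was near background. PSMD10, or gankyrin, holds the ATPase PSMC4 and is also studied as an oncoprotein that binds RB1 and MDM2. It read 7736 and 8594 units in DLD-1-miR-Vec cells and 730 and 582 in DLD-1-miR-21 cells. Both DLD-1-miR-21 arrays were far below both others, on the deposited scale too (10457 and 12651 against 403 and 435). PSMD10 fell by 3.55 on the log2 scale (SE 0.16, 95% interval -3.98 to -3.12, adjusted p = 0.00196), or 11.7-fold, which is the largest change among the 13 probes.

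PSMD5, which holds PSMC1 and PSMC2, read 7919 and 7750 units in DLD-1-miR-Vec cells and 14747 and 15396 in DLD-1-miR-21 cells. It rose by 0.94 (SE 0.12, 95% interval 0.63 to 1.25, adjusted p = 0.00635), or 1.92-fold. As for PSMG4, this direction turns without normalization. The deposited values were 10692 and 11362 in DLD-1-miR-Vec and 8464 and 9585 in DLD-1-miR-21 cells (log2 ratio -0.29, adjusted p = 0.239). PSMD9, which holds PSMC3 and PSMC6, read 42 and 52 units in DLD-1-miR-Vec cells and 46 and 26 in DLD-1-miR-21 cells. These values overlapped and lie at percentile 5.93 of mean signal, and the log2 ratio of -0.17 (SE 0.17, adjusted p = 0.441) was not called. So near background, a fall of PSMD9 was not detectable.

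The ATPases that these chaperones hold did not share the direction of their chaperone in each case. PSMC4, the client of PSMD10, fell by 1.61 on the log2 scale (SE 0.13, adjusted p = 0.0029), from 13052 and 11910 units to 4232 and 3869. Chaperone and client were both lower, PSMD10 by more. The clients of PSMD5 were mixed. PSMC1 had a log2 ratio of -0.37 (adjusted p = 0.0944) that was not called. The 3 probes of PSMC2, from the brightest down, had log2 ratios of 0.23 (adjusted p = 0.177), -2.88 (adjusted p = 0.0022) and 0.42 (adjusted p = 0.0435), so the calls on this gene oppose each other after normalization. Without it all 3 were called lower, at -0.94, -4.09 and -0.74. Of the clients of PSMD9, PSMC6 fell by 1.59 on the log2 scale (SE 0.17, adjusted p = 0.0046). PSMC3 had a log2 ratio of -0.33 (adjusted p = 0.115) on its brightest probe and -2.59 (adjusted p = 0.002) on the second. PAAF1, a further base chaperone that holds PSMC5, rose by 0.53 (SE 0.13, adjusted p = 0.0329) while PSMC5 fell by 1.37 on the log2 scale (SE 0.12, adjusted p = 0.0031). PAAF1 too turned without normalization, to -0.72.

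**Figure D3:**
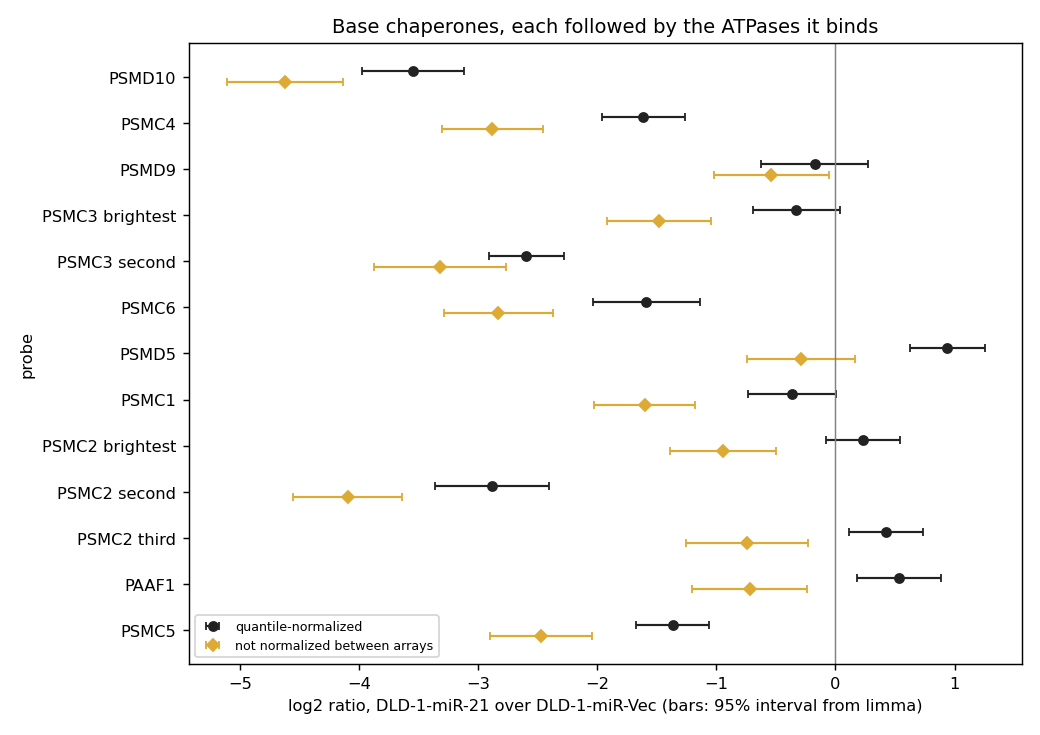
Log2 ratio between the lines (horizontal axis, DLD-1-miR-21 over DLD-1-miR-Vec) for each base chaperone followed by the ATPases it holds, with 95% intervals from limma; black circles are quantile-normalized and yellow diamonds not normalized between arrays. PSMD10 at -3.55 and PSMC4 at -1.61 are both left of 0, and PSMD5 and PAAF1 lie right of 0 only after normalization.

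Over the 45 subunit probes, the 3 nearest to PSMD10 in their pattern across the 4 arrays were the second PSMC2 probe, PSMD4 and the second PSMC3 probe. Nearness was the Euclidean distance between log2 values centred on each probe's mean, at 0.712, 0.926 and 0.992 log2 units. With 4 arrays in 2 lines, this mostly restates the size of the log2 ratio, which was -2.88, -2.78 and -2.59 for these probes. PSMD4 encodes a ubiquitin receptor of the base.

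The transcription factor NFE2L1 was lower on both DLD-1-miR-21 arrays but did not pass the test. It read 7806 and 7318 units in DLD-1-miR-Vec cells and 6071 and 5056 in DLD-1-miR-21 cells. The lines did not overlap, and the log2 ratio was -0.44 (SE 0.15, 95% interval -0.84 to -0.05, adjusted p = 0.0691). Its call changed with the processing, since it was called lower without normalization (-1.69) and in 3 other settings. NGLY1, the glycanase that edits NFE2L1 after its release, read 8897 and 9650 units in DLD-1-miR-Vec cells and 9472 and 8790 in DLD-1-miR-21 cells. These overlapped, with a log2 ratio of -0.02 (SE 0.13, 95% interval -0.36 to 0.32, adjusted p = 0.90). NGLY1 has the log2 ratio closest to 0 of the 13 probes.

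Among 13 further genes of the NFE2L1 route, with 24 probes, 3 probes were called higher (12.5%), 10 lower (41.7%) and 11 neither, beside 23.0% and 21.8% of all probes. Without normalization 0 of the 24 were higher and 16 lower, beside 1.31% and 44.2% of all probes. The group that pulls NFE2L1 out of the endoplasmic reticulum was lower on all 4 of its probes. VCP, the ATPase that does the pulling, read 39378 and 38600 units in DLD-1-miR-Vec cells and 18304 and 14444 in DLD-1-miR-21 cells. It fell by 1.26 on the log2 scale (SE 0.16, adjusted p = 0.00674). Its cofactors UFD1L and NPLOC4 fell as well, with log2 ratios of -1.21 and -1.03 on the 2 probes of UFD1L (adjusted p = 0.0038 and 0.0071) and -1.35 for NPLOC4 (adjusted p = 0.0074). The lines did not overlap on any of these probes, nor on 76.2% of all probes.

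At the other steps of the route, probes were not called or were split. The protease DDI2, which cuts NFE2L1, was dim at 109 and 116 units against 69 and 97, with a log2 ratio of -0.30 (adjusted p = 0.184), and its relative DDI1 was at -0.08 (adjusted p = 0.637). Of the ligase SYVN1 and its partner SEL1L, which mark NFE2L1 for removal, 1 SYVN1 probe rose (0.70, adjusted p = 0.0141; -0.49 without normalization), and the other, at 0.06, and the 3 of SEL1L, at 0.06 to 0.61, were not called. The small MAF partners disagreed among themselves and between probes. MAFF was at 0.12 and not called. MAFG had a log2 ratio of 0.63 on its brightest probe and -0.67 on the second, both called (adjusted p = 0.025 and 0.0302), and both were below 0 without normalization (-0.47 and -1.19). MAFK had -0.75 and 1.59 on its brightest and second probes, both called (adjusted p = 0.0148 and 0.0141), and -0.18 on the third.

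NFE2L2 (NRF2), the related factor that binds the same DNA element, was lower on both probes. Its brightest fell from 9262 and 10189 units to 6856 and 6004, a log2 ratio of -0.59 (SE 0.14, adjusted p = 0.0284). The second fell from 10329 and 10024 units to 2626 and 2184, a log2 ratio of -2.06 (SE 0.15, adjusted p = 0.0025). The direction was shared and the size was not. FBXW7 and BTRC, ligase receptors that mark NFE2L1 for degradation, each had 1 probe called lower, at -0.61 (adjusted p = 0.0395) and -0.67 (adjusted p = 0.0164). Their other probes, at 0.04 and 0.30 for FBXW7 and 0.54 for BTRC, were not called.

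**Figure D4:**
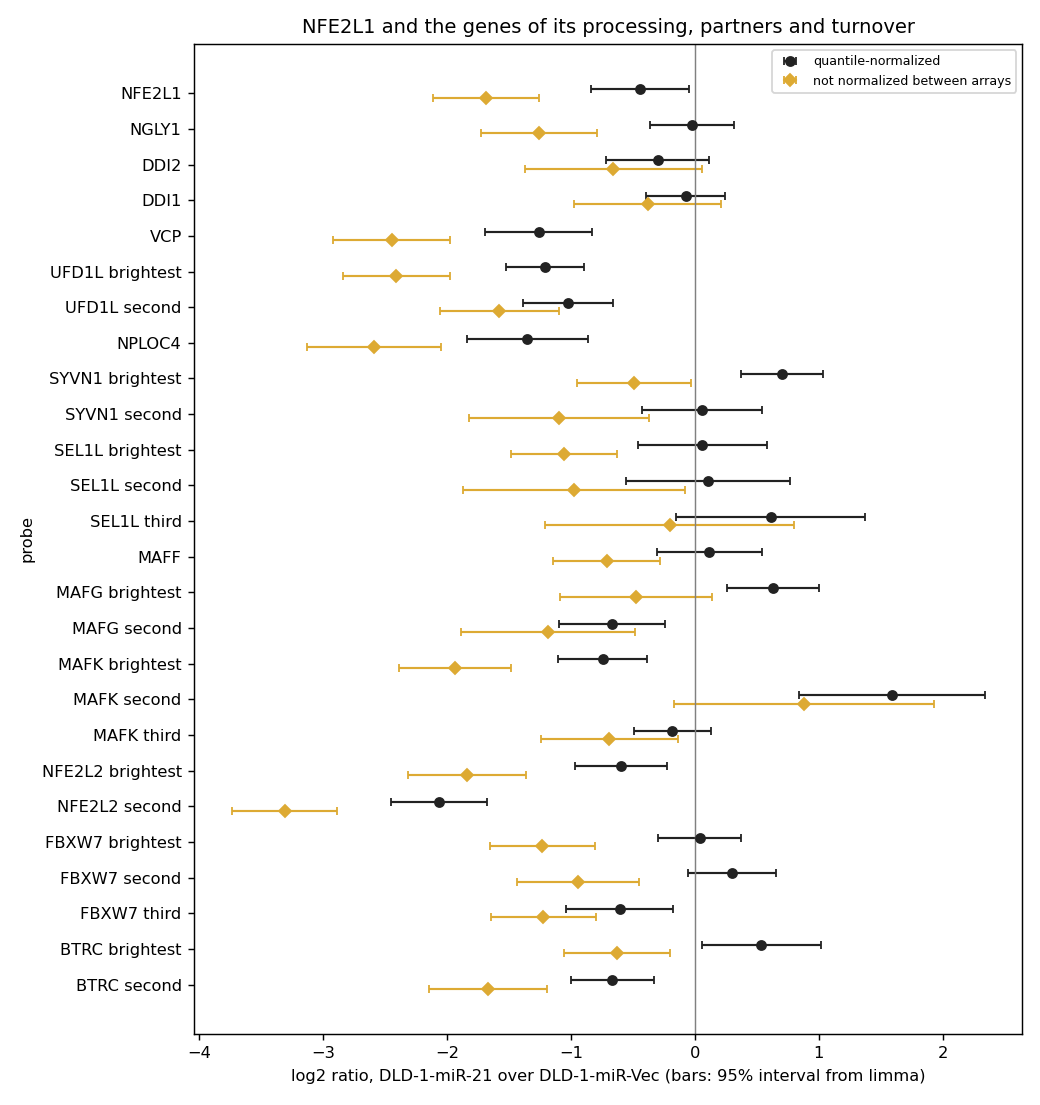
Log2 ratio between the lines (horizontal axis, DLD-1-miR-21 over DLD-1-miR-Vec) for NFE2L1, NGLY1 and each probe of the route, with 95% intervals from limma; black circles are quantile-normalized and yellow diamonds not normalized between arrays. VCP, UFD1L and NPLOC4 lie between -1.35 and -1.03 after normalization, and NGLY1 is at -0.02.

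Counted together, 2 of the 13 probes of the assembly chaperones, NFE2L1 and NGLY1 were called higher (PSMG4 brightest and PSMD5), 6 lower and 5 neither. That is 15.4% higher and 46.2% lower, beside 23.0% and 21.8% of all probes. The median log2 ratio was -0.44, against 0.07 over all probes. The arrays of the lines did not overlap on 10 of the 13, where 76.2% of all probes did not overlap, so separation of the arrays alone does not set these probes apart. The proteasome subunits gave like values, with 8 of 45 probes (33 genes) higher, 22 lower and a median of -0.43. By subcomplex, 3 probes were higher and 11 lower of 23 for the 20S core, 2 and 6 of 13 for the 19S base, and 3 and 5 of 9 for the lid. The difference between the chaperones and the subunits was not tested.

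Ordered by log2 ratio, the 13 probes ran from PSMD10 (-3.55) through the second PSMG3 probe (-2.80) and PSMG1 (-2.55) to PSMD5 (0.94) and the brightest PSMG4 probe (1.09). The 95% intervals of neighbours in this order overlapped except at 2 places. One was between PSMG1 and the second PSMG4 probe (-1.11), with PSMD10, PSMG3 second and PSMG1 at the low end. The other was between the brightest PSMG2 probe (0.13) and PSMD5, with PSMD5 and PSMG4 brightest at the high end. The 8 probes between them formed 1 run, from -1.11 to 0.13, in which no neighbours differed beyond their intervals. The ends of that run did not overlap, with intervals of -1.47 to -0.75 and -0.22 to 0.49. Order and gaps were read from the same estimates, so they describe the probes and do not test groups among them.

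Without normalization between arrays the log2 ratio was below 0 for all 13 probes, with 10 called lower and 0 higher. Over all probes 44.2% were then called lower and 1.31% higher. PSMG4 brightest, PSMD5 and PSMD9 were the 3 that were not called. PSMD10 (-4.62), PSMG1 (-3.65) and the second PSMG3 probe (-3.49) stayed furthest down. POMP (-1.13), NGLY1 (-1.26) and the brightest PSMG2 probe (-0.98), which had no call after normalization, were called lower. Which of these scales is nearer to RNA per cell was not tested.

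**Figure D5:**
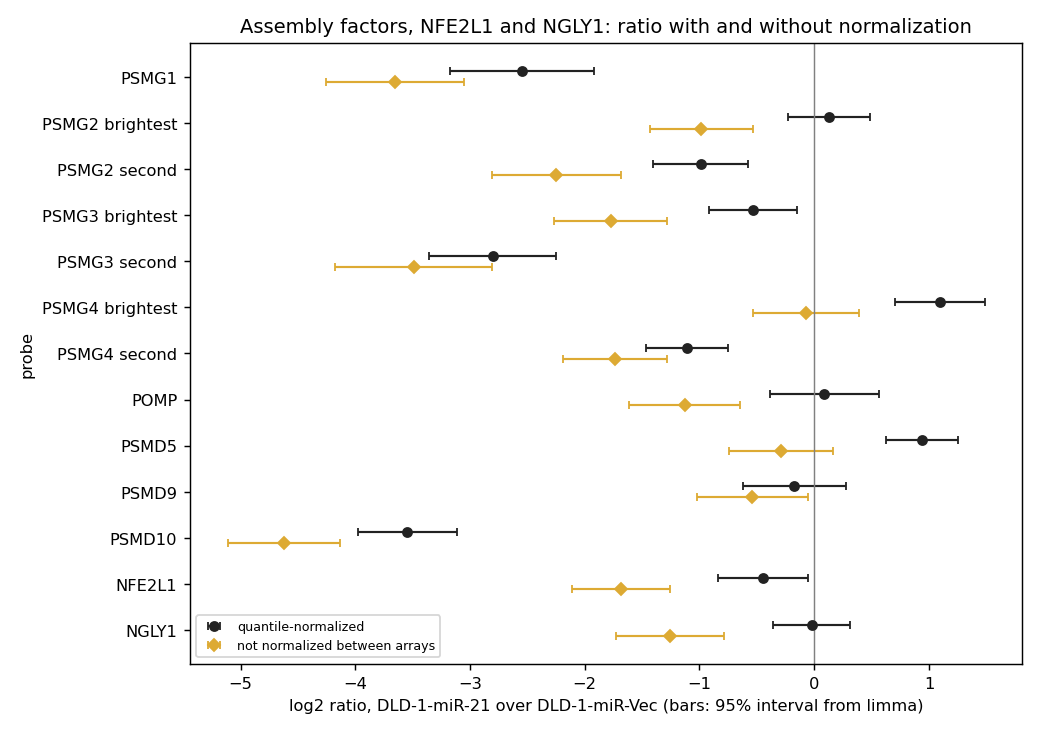
Log2 ratio between the lines (horizontal axis, DLD-1-miR-21 over DLD-1-miR-Vec) for the 13 probes with 95% intervals from limma; black circles are quantile-normalized and yellow diamonds not normalized between arrays. Only PSMG4 brightest and PSMD5 are called higher after normalization, and without it all 13 points lie left of 0.

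Some calls were lost when single arrays were left out. With DLD-1-miR-21 replicate 2 removed, limma called 0 of the 13 probes, and 0 of all 31741. At an unadjusted p under 0.05 that fit still had 2 of the 13 higher and 5 lower, and 6341 higher and 6629 lower over all probes. Leaving out any other array also gave fewer calls, both among the 13 and over all probes. Whichever array was left out, the log2 ratio of PSMD10 stayed between -3.71 and -3.41, and that of PSMD5 between 0.91 and 0.97. PSMD10, PSMG1 and the second PSMG3 probe lost their calls in no other of 14 alternative settings than the one without DLD-1-miR-21 replicate 2, where their log2 ratios were -3.45, -2.36 and -2.85 (adjusted p = 0.0551, 0.0565 and 0.0565). The brightest PSMG3 probe lost its call in 7 of the 14.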

How the data were processed

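Each line, DLD-1-miR-Vec or DLD-1-miR-21, was read on 2 single-color arrays, 4 in all. Deposited values are linear intensities of 31741 probes, of which 78, 256 and 3 on 3 arrays were at or below 0, so a background had probably been subtracted. Scanner, extraction software and normalization: not given in the sources used here. Intensities were quantile-normalized, 50 was added, and log2 values were tested by group with lmFit and eBayes (limma 3.58.1, R 4.3.3; 2 residual and 2.48 prior degrees of freedom). P-values were adjusted by Benjamini-Hochberg over all probes, with calls at 0.05. The methods name thresholds on the log2 ratio and p-value but no test. Probe symbols are those of the platform's annotation and may be outdated: 24740 probes have 1 symbol, 977 several and 6024 none. The text names every probe of the 10 genes and of the NFE2L1 route and proteasome partner lists, and the subunits that a chaperone holds. The genes and lists were chosen with earlier results of these data known. Alternatives were other normalizations, offsets, filters, a variance model, the replicate block, other probe summaries and leaving out each array. The probe-pair test was added after seeing the data. The script was tested on simulated data. The number of arrays limits the precision.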

Additional observations from a re-analysis of the deposited data

How the results depend on the processing

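The scaling between arrays and single arrays moved the results most. Without normalization, 0 of the 13 probes of the 10 genes were higher and 10 lower, 0 and 38 of the 45 subunit probes, and 416 and 14025 of all probes. The sign then turned for PSMG4 (-0.072), PSMG2 (-0.98), POMP (-1.13), PSMD5 (-0.29), PSMC2 (-0.94 and -0.74), PAAF1 (-0.72), USP14 (-0.52), UCHL5 (-1.12), AKIRIN2 (-0.60 and -1.20), PSMF1 (-0.71), PSME4 (-0.99), SYVN1 (-1.10 and -0.49), SEL1L (-1.06, -0.98 and -0.21), MAFF (-0.71), MAFG (-0.47), FBXW7 (-1.23 and -0.95) and BTRC (-0.63). Of the 14 subunit probes above 0 after normalization, 12 were then below 0. Median centring left 3 subunit probes higher. Leaving out the dimmest 50% of probes left 4685 higher and 4324 lower among the brighter 50%, the only probes tested. These are larger shares of the tested probes than the 7294 and 6912 of all 31741 called with every probe kept. The log2 and p-value limits in the methods left 1 of the 13 probes higher and 4 lower, beside 3320 and 3909 of all 31741 probes. The brightest probe of each gene gave 2 genes higher in place of 1, and 3 lower in place of 4. Leaving out 1 array gave 0 to 2 of the 13 higher and 0 to 5 lower, 0 to 5 and 0 to 19 subunit probes, and 0 to 6702 and 0 to 5978 of all probes. The cause of these changes was not tested, and an arm left with 1 array is assumed to vary like the other line. The replicate numbers did not pair the arrays (r of the deviations -0.0685). With the number as a replicate block, 2 of the 13 probes were higher and 5 lower, and 5678 and 5744 of all probes, where the fit without the block had 7294 and 6912. Dim probes such as PSMD9 and DDI2 are limited by signal over background.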

Other observations

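Genes that work beside the assembled proteasome were split. Of 18 probes for 11 partners, 4 were called higher (22.2%), 8 lower (44.4%) and 6 neither, beside 23.0% and 21.8% of all probes, with a median log2 ratio of -0.33. Without normalization 1 was higher and 14 lower, beside 1.31% and 44.2% of all probes. The PA28 activator, which opens the core barrel, was lower. PSME1 fell from 41413 and 45336 normalized units to 17481 and 15155 on its brightest probe, a log2 ratio of -1.41 (SE 0.14, adjusted p = 0.0041). Its second probe was at -1.82 (adjusted p = 0.0027), PSME2 at -0.86 (adjusted p = 0.0118) and the nuclear form PSME3 at -0.91 (adjusted p = 0.0119). All 4 probes of this activator family were thus called lower. PSME4, the nuclear activator PA200, had 1 probe called higher (adjusted p = 0.0042) from a dim level of 66 and 57 units, and another at 0.01 that was not called. The log2 ratio of the dim probe was 1.25 and moved with the handling of low values, from 0.96 with an offset of 100 to 1.72 with a floor of 64.

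The deubiquitinases of the 19S particle gave opposite or unequal probes. USP14 rose by 0.66 (adjusted p = 0.0189) on its brightest probe and fell by 2.14 on the log2 scale on the second (adjusted p = 0.002). Without normalization both were below 0, at -0.52 and -2.79. UCHL5 was at 0.15 (adjusted p = 0.432) on its brightest probe and fell by 1.09 on the log2 scale on the second (adjusted p = 0.0295). The inhibitor PSMF1 had -2.30 (adjusted p = 0.0022) on 1 probe and 0.43, not called, on the other. KIAA0368 (ECPAS), an adaptor of the proteasome, fell by 1.61 on its brightest probe (adjusted p = 0.0051) and was at -0.24, not called, on a dim one. AKIRIN2, which brings proteasomes into the nucleus, rose by 0.64 on its brightest probe (adjusted p = 0.0242), and its second was at 0.07 and not called, but without normalization they were at -0.60 and -1.20. The proteasome-bound thioredoxin TXNL1, at -0.42, was not called.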
